A study of Mus musculus with 18 samples.

Results

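The genes described are the ligands of the epidermal growth factor (EGF) receptor and the receptors of its family in mouse skin, in which a Notch transgene was switched on in the basal keratinocytes. They were taken as every probe set that the platform annotation gives to Epgn, Hbegf, Areg, Ereg, Tgfa, Btc, Egf, Egfr, Erbb2 or Erbb3. Of these 10 symbols 9 were found, on 20 of the 45037 probe sets of the table, against 18193 genes in all. Areg, the amphiregulin gene, was not analysed here. Egfr had 7 probe sets, Tgfa 3, Hbegf, Btc and Erbb3 2 each, and Epgn, Ereg, Egf and Erbb2 1 each. A filter on dim probe sets, a mean log2 value of 3.15 over all 18 arrays, was passed by 19 of the 20 members and by 31526 probe sets of the table. The 1 member that did not pass was Egfr 1454313_at, with values between 0.28 and 5.69.

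RNA was measured on 18 Affymetrix arrays. Transgenic K14NICDER mice and wild-type mice each gave 3 samples of epidermis, 3 of dermis and 3 of whole skin, which makes 6 groups. All groups were females of the genetic background C57Bl6xCBA F1, aged 7 weeks at the start, and all received 4OHT (4-hydroxytamoxifen) for 14 days, the wild-type mice included. In the transgenic mice the promoter of keratin 14, a gene of basal keratinocytes and of the outer root sheath of the hair follicle, drives the intracellular domain of Notch joined to a hormone-binding domain of the estrogen receptor, which 4OHT activates. The study asked how Notch activity in adult epidermis alters expression in the epidermis and in the dermis beneath it. Whether 1 animal gave several of the samples, or several animals 1 sample, is not stated in the labels, and the spread behind each p-value is therefore only that between samples, which may in part be technical.

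The EGF receptor is a tyrosine kinase of the cell surface. Its ligands, EGF, TGF-alpha, amphiregulin, epiregulin, betacellulin, epigen and heparin-binding EGF-like growth factor, are made as membrane proteins and released by proteases of the ADAM family, and they bind the EGF receptor alone or, for some of them, ErbB4 as well. The bound receptor pairs with itself or with ErbB2, which has no known ligand, or with ErbB3, which binds neuregulins and has little kinase activity of its own, and signals through the Ras-MAP kinase and phosphoinositide 3-kinase pathways. In epidermis the pathway is known for keratinocyte proliferation, migration and wound closure, and keratinocytes make several of the ligands themselves.

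The genes of 4 of the ligands, Epgn, Ereg, Areg and Btc, lie in that order on chromosome 5 of the mouse, with 0 protein-coding genes listed between neighbours in the RefSeq gene table. Areg was not analysed here, and of the others Epgn and Btc carried the called changes with genotype, in opposite directions. The 250 bases before the annotated start of each are shown for that reason, 5′ to 3′ on the strand of the gene, from RefSeq, build GRCm38.p6. Epgn lies on the plus strand, with the stretch at chr5:91027267-91027516. Btc lies on the minus strand, with the stretch at chr5:91402995-91403244. Capitals mark TATAAA, the core of the TATA box.
Epgn: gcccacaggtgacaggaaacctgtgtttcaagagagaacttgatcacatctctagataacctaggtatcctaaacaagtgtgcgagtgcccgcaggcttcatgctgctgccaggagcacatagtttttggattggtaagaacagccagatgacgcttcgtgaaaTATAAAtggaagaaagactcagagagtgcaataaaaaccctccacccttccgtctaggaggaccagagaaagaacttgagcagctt
Btc: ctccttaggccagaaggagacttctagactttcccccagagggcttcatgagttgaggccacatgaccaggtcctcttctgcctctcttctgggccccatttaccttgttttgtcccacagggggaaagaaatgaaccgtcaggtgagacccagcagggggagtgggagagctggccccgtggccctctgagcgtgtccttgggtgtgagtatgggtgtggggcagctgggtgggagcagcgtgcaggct
The stretch of Epgn held 1 match to TATAAA, whose first base lies 86 bases before the start, and that of Btc held 0. On both strands, 12.4% of 32851 promoters of the same length held TATAAA. The core of the site bound by RBPJ, the DNA-binding partner of Notch (TGGGAA), had 0 matches in either stretch, as did the AP-1 site (TGANTCA), against 21.6% and 6.75% of all promoters. Of the other members whose promoters were searched (Areg, Tgfa, Egf, Egfr and Erbb2), that of Areg held 1 match to TGGGAA and 1 to TATAAA. The promoters of Hbegf, Ereg and Erbb3 were not searched.

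Values are log2 MAS5 signals, MAS5 being the Affymetrix algorithm that sets perfect-match against mismatch probes. A difference is that of 2 group means of 3 arrays each, ± the standard error from limma. Each comparison used only the arrays of its own tissues, with p-values adjusted by the Benjamini-Hochberg method over all 31526 probe sets and a threshold of 0.05. MAS5 spreads dim values widely. Over the probe sets tested, the median SD of a group was 0.202 and 0.203 in whole skin, 0.396 and 0.489 in epidermis, and 0.357 (wild type) and 0.593 (transgenic) in dermis. The correlation between arrays of 1 group was 0.958 to 0.970 in whole skin, 0.842 to 0.930 in epidermis, 0.915 to 0.938 in wild-type dermis and 0.787 to 0.872 in transgenic dermis. The labels were set against Heyl, a transcriptional repressor that Notch induces. Heyl was chosen after its values were seen, from a list of Notch targets of which 10 were tested. Its 3 transgenic values lay above its 3 wild-type values in every tissue: 4.44 to 6.04 against 0.59 to 3.87 in epidermis, 7.14 to 8.27 against 3.76 to 5.49 in dermis, and 7.66 to 7.84 against 5.23 to 5.50 in whole skin. Only the last difference passed the test (2.40 ± 0.14, adjusted p = 1.24e-04, limma), and it did not with 1 spread for all 18 arrays (0.346). The list as a whole did not rise in transgenic epidermis, where 0 of the 10 targets were called higher and 2 lower (Gata3 and Lfng). Its median difference was -0.38 there, against 0.09 for dermis and 0.37 for whole skin.

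Of the ligands, Epgn was higher and Btc lower in transgenic whole skin, and Btc was lower in transgenic epidermis. Hbegf lay above the wild type in every transgenic array of epidermis and whole skin without passing the test, and no receptor was called with genotype in any tissue. In epidermis 2 of the 19 tested member probe sets were called, both lower and both of Btc, against 1.49% of all probe sets in either direction and 0.568% lower. In whole skin 3 of 19 were called, 1 higher and 2 lower, against 1.56% of all probe sets in either direction, 0.91% higher and 0.653% lower. In dermis 0 of 19 were called, and only 7 of the 31526 probe sets (0.0222%) were. At an unadjusted p of 0.05, 5, 3 and 8 of 19 passed in epidermis, dermis and whole skin. In dermis 3.91% of all probe sets did. With 1 probe set per gene, 18.1%, 4.38% and 18.3% of all genes did in these tissues. The share of all probe sets was not computed for epidermis and whole skin. The member counts there hold both probe sets of Btc and of Hbegf, so the shares by gene are not a like measure.

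**Figure D1:**
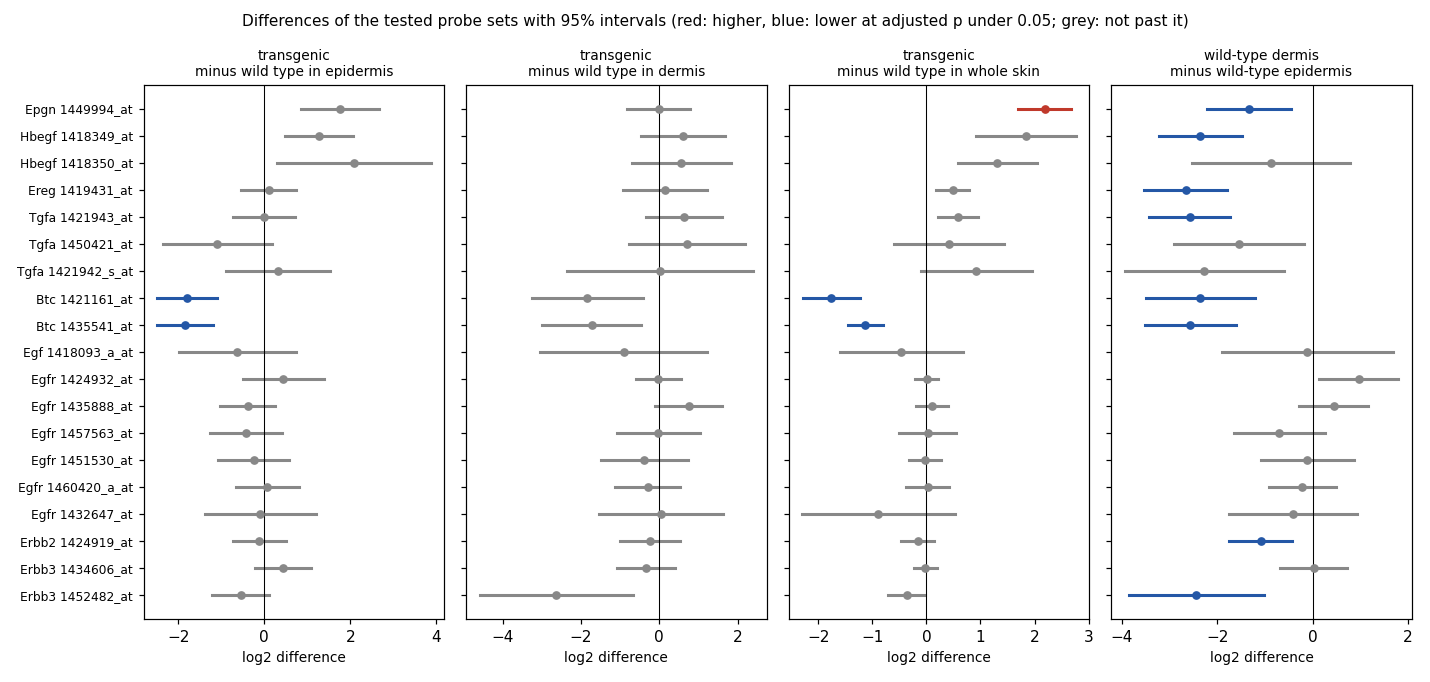
Log2 differences (x axis) of the 19 tested probe sets (rows), transgenic minus wild type in epidermis, dermis and whole skin, and wild-type dermis minus wild-type epidermis, with 95% intervals from limma. Points are the differences, red where higher, blue where lower at an adjusted p under 0.05 and grey otherwise: both Btc probe sets are blue in epidermis and whole skin, Epgn is the 1 red point, in whole skin, and 8 points are blue between the wild-type tissues.

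Epgn encodes epigen, a ligand of the EGF receptor found in epithelia. In whole skin, wild-type arrays gave 4.99, 5.77 and 5.51, and transgenic arrays 7.29, 7.80 and 7.75. The groups did not overlap, and Epgn rose by 2.19 ± 0.22 on the log2 scale, 4.55-fold (95% interval of the log2 difference 1.69 to 2.68, adjusted p = 0.00235, limma), a call that none of the 17 alternatives ended. In epidermis the wild-type values were 7.19, 7.02 and 7.41 and the transgenic values 7.89, 9.88 and 9.12. All 3 transgenic arrays again lay above the wild type, with a wide spread among them (SD 1.0 against 0.19), and the difference of 1.76 ± 0.42 did not pass (adjusted p = 0.0675). It passed without transgenic array 1, the lowest of its group (2.29, adjusted p = 0.0204), without wild-type array 2 (1.66, 0.0412), with 1 spread for all 18 arrays (0.0105), with a weight for each tissue (0.0435) or with 16 added on the linear scale (1.66, 0.0492). In dermis the values overlapped, at 6.08, 6.07 and 5.47 in wild type and 5.54, 5.82 and 6.21 in transgenic mice, and the difference was -0.02 ± 0.36. Its 95% interval, -0.83 to 0.79, holds no increase of the size measured in whole skin. The rise in whole skin starts from a wild-type mean of 5.43. That is below the wild-type means of both dermis (5.87) and epidermis (7.21), and the reason was not tested. The genotype effect in dermis minus that in epidermis was -1.77 ± 0.58 on the log2 scale, which did not pass after adjustment over all probe sets (adjusted p = 0.636, limma).

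Btc encodes betacellulin, which binds both the EGF receptor and ErbB4. Its probe set 1421161_at gave 8.02, 9.13 and 8.63 in wild-type and 6.92, 6.52 and 6.94 in transgenic epidermis. In whole skin it gave 7.65, 8.30 and 7.62 in wild type and 6.55, 5.91 and 5.84 in transgenic mice. In both tissues every transgenic array lay below every wild-type array. The signal fell by 1.80 ± 0.32 in epidermis (3.48-fold, adjusted p = 0.0208) and by 1.76 ± 0.23 in whole skin (3.39-fold, adjusted p = 0.00882, limma). The genotype effects in these tissues differed by 0.04 ± 0.42, with a 95% interval of -0.87 to 0.94.

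The second probe set of Btc, 1435541_at, gave the same direction in the same arrays. It measured 7.94, 8.50 and 8.15 in wild-type and 6.63, 5.98 and 6.45 in transgenic epidermis, a fall by 1.85 ± 0.29 (adjusted p = 0.0127). In whole skin it measured 6.90, 7.27 and 7.05 in wild type and 5.98, 5.85 and 5.99 in transgenic mice, a fall by 1.13 ± 0.14 (adjusted p = 0.00692). In epidermis 1421161_at did not pass without wild-type array 3 (0.121) or without transgenic array 1 (0.0813), 2 (0.0937) or 3 (0.0560), and 1435541_at did not pass without wild-type array 3 (0.0801) or transgenic array 2 (0.0641), while the differences stayed between -2.09 and -1.53 over all alternatives for the former. A prior without trend also ended both epidermal calls (0.131 and 0.0971), as did a block for each replicate number. A weight for each tissue ended that of 1421161_at (0.0857). In epidermis 1421161_at passed in 10 of 17 alternatives and 1435541_at in 11 of 15. In whole skin leaving out any 1 array ended neither call; 1 spread for all 18 arrays ended both (0.402 and 0.893), as did a prior without trend (0.0839 and 0.0557).

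In dermis Btc was also low in the transgenic mice but did not pass the test. The wild-type values of 1421161_at were 6.92, 5.84 and 5.95, and the transgenic values 4.81, 5.46 and 2.93. Again no transgenic array reached the wild type, and array 3 lay well below the others. The difference was -1.84 ± 0.64 for 1421161_at and -1.73 ± 0.56 for 1435541_at (adjusted p = 0.990 for both, limma). Without transgenic array 3 the former was -1.10. Counted over members, 3 of 19 probe sets had all transgenic arrays below the wild type in dermis, both of Btc and 1 of Erbb3, against 6.04% of all probe sets, and 0 had them all above, against 3.09%.

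Hbegf encodes heparin-binding EGF-like growth factor, a ligand known to be induced in wounded epidermis. On 1418349_at whole skin gave 4.12, 4.54 and 4.17 in wild type and 6.77, 6.58 and 5.0 in transgenic mice. On 1418350_at it gave 4.08, 4.02 and 3.91 in wild type and 6.01, 5.33 and 4.62 in transgenic mice. All transgenic arrays lay above the wild type on both, array 3 the least, and the differences of 1.84 ± 0.41 (adjusted p = 0.0643) and 1.31 ± 0.32 (adjusted p = 0.0897) did not pass. The former passed in 3 of 17 alternatives, among them without transgenic array 3 (2.40, adjusted p = 0.00197) and with a weight for each tissue (0.00263).

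In epidermis 1418349_at gave 7.01, 5.86 and 7.07 in wild type and 7.58, 8.15 and 8.04 in transgenic mice, with no overlap and a difference of 1.27 ± 0.36 (adjusted p = 0.116). The other probe set differed by 2.08 ± 0.81 (adjusted p = 0.223), with 1 wild-type array at 2.11 and the other two at 6.02 and 5.19. In dermis the differences were 0.61 ± 0.48 and 0.56 ± 0.56, with overlapping arrays.

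Ereg, which encodes epiregulin, and Tgfa, which encodes the ligand TGF-alpha, showed no called difference. In whole skin Ereg gave 6.68, 6.62 and 6.48 in wild type and 6.88, 7.22 and 7.13 in transgenic mice, without overlap (0.48 ± 0.14, adjusted p = 0.132). In epidermis and dermis its differences were 0.10 ± 0.29 and 0.13 ± 0.48. Tgfa 1421943_at gave 5.77, 5.87 and 5.78 against 6.63, 6.41 and 6.14 in whole skin, again without overlap (0.58 ± 0.16, adjusted p = 0.124). In epidermis it differed by -0.01 ± 0.33 and in dermis by 0.64 ± 0.43. The other probe sets of Tgfa, 1450421_at and 1421942_s_at, differed by -1.10 ± 0.58 and 0.32 ± 0.56 in epidermis, by 0.70 ± 0.66 and 0.01 ± 1.07 in dermis, and by 0.42 ± 0.45 and 0.92 ± 0.46 in whole skin. Egf, the gene of EGF itself, was dim in all groups, between 1.13 and 5.11, and its differences of -0.63 ± 0.62, -0.91 ± 0.95 and -0.46 ± 0.51 in epidermis, dermis and whole skin did not pass.

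**Figure D2:**
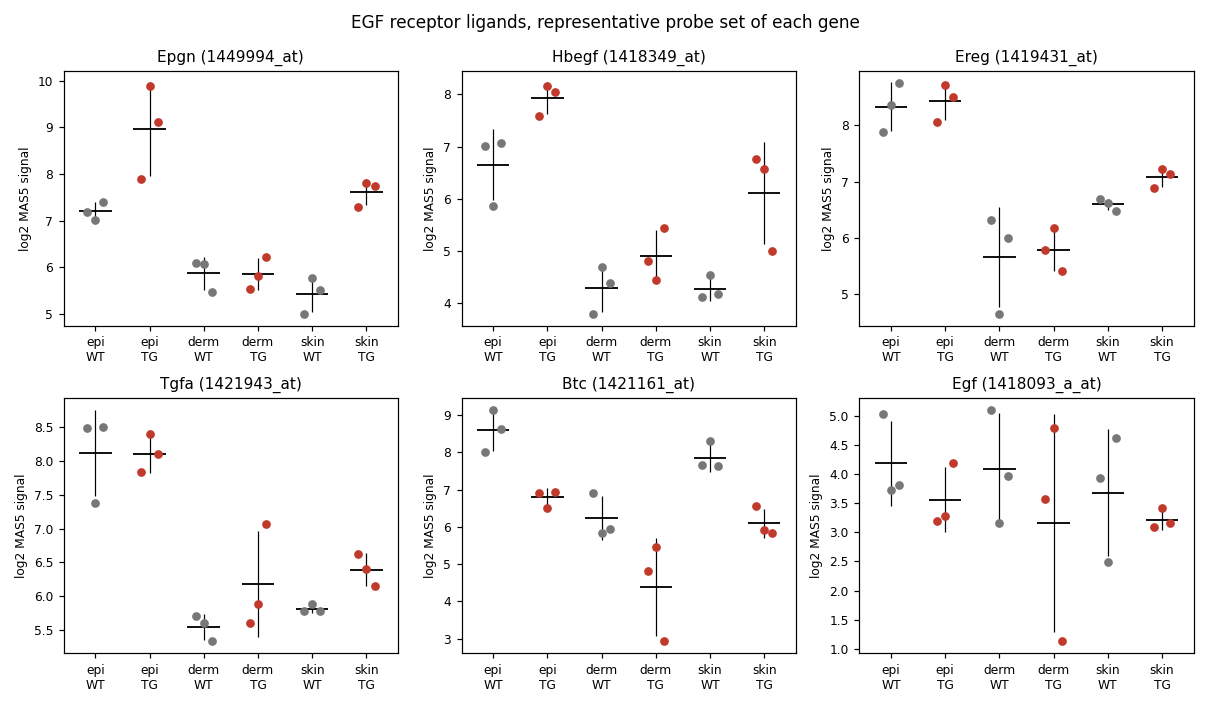
Log2 MAS5 signal (y axis) of the representative probe set of each ligand gene on every array, by tissue (epi, epidermis; derm, dermis; skin, whole skin) and genotype (WT, wild type, grey; TG, transgenic, red), with the mean (horizontal line) and 1 SD either side (vertical bar), 3 arrays a group. Transgenic Epgn lies above the wild type in epidermis and whole skin and among it in dermis, while transgenic Btc lies below the wild type in all 3 tissues; y axes differ between panels.

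The arrays of all members can be counted the same way. In whole skin 5 of 19 member probe sets had every transgenic array above every wild-type array, against 9.66% of all probe sets, and these were Epgn, both of Hbegf, Ereg and Tgfa 1421943_at, all of them ligands. Another 3 of 19 had them all below, both of Btc and Erbb3 1452482_at, against 12.1%. In epidermis 3 of 19 lay above (Epgn and both of Hbegf), against 8.27%, and 3 of 19 below (both of Btc and Egfr 1435888_at), against 14.7%. The median difference of the members was near that of all probe sets in each tissue: -0.10 against -0.20 in epidermis, -0.03 against -0.09 in dermis and 0.02 against -0.02 in whole skin.

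The receptor genes showed no called difference with genotype. Egfr, the receptor shared by all the ligands above, has 6 tested probe sets, which differed in epidermis by between -0.44 and 0.45, in dermis by between -0.38 and 0.75 and in whole skin by between -0.89 and 0.11, with adjusted p-values of at least 0.479. The probe set with the highest mean, 1424932_at, was even in whole skin, at 8.33, 8.33 and 8.24 in wild type and 8.29, 8.24 and 8.39 in transgenic mice, a difference of 0.00 ± 0.10 with a 95% interval of -0.21 to 0.22. In epidermis it gave 6.29, 8.21 and 7.75 in wild type and 7.86, 7.53 and 8.19 in transgenic mice, and wild-type array 1 alone set the sign of the difference (0.45 ± 0.43, and -0.12 without it). Probe set 1435888_at had the other sign in epidermis (-0.39 ± 0.29) than in dermis (0.75 ± 0.38), and the genotype effects in these layers differed by 1.14 ± 0.48, which did not pass (adjusted p = 0.668, limma). The other tested probe sets, 1457563_at, 1451530_at, 1460420_a_at and the dim 1432647_at, differed in epidermis by -0.44 ± 0.38, -0.25 ± 0.38, 0.07 ± 0.34 and -0.10 ± 0.59, in that order. In whole skin they differed by 0.02 ± 0.23, -0.03 ± 0.13, 0.02 ± 0.17 and -0.89 ± 0.63, and in dermis by -0.03 ± 0.47, -0.38 ± 0.50, -0.30 ± 0.37 and 0.04 ± 0.71. Probe sets of the gene thus did not share a direction.

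Erbb2, the partner receptor without a ligand, measured 7.81, 7.91 and 7.91 in wild-type and 7.24, 8.06 and 7.97 in transgenic epidermis. Its differences were -0.12 ± 0.28 there, -0.24 ± 0.34 in dermis and -0.16 ± 0.14 in whole skin, with 95% intervals that lie between -1.0 and 0.52. Erbb3, the receptor of neuregulins, had 2 probe sets that disagreed. On 1434606_at the differences were 0.43 ± 0.30, -0.34 ± 0.33 and -0.02 ± 0.09 in epidermis, dermis and whole skin. On 1452482_at dermis gave 4.92, 5.74 and 4.64 in wild type and 3.94, 3.01 and 0.43 in transgenic mice. These did not overlap, with array 3 again the lowest, and the difference of -2.64 ± 0.87 did not pass (adjusted p = 0.990, limma). In whole skin the same probe set gave 5.95, 5.98 and 6.0 against 5.50, 5.80 and 5.54 (-0.37 ± 0.15, adjusted p = 0.292), and in epidermis it overlapped (-0.55 ± 0.30).

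**Figure D3:**
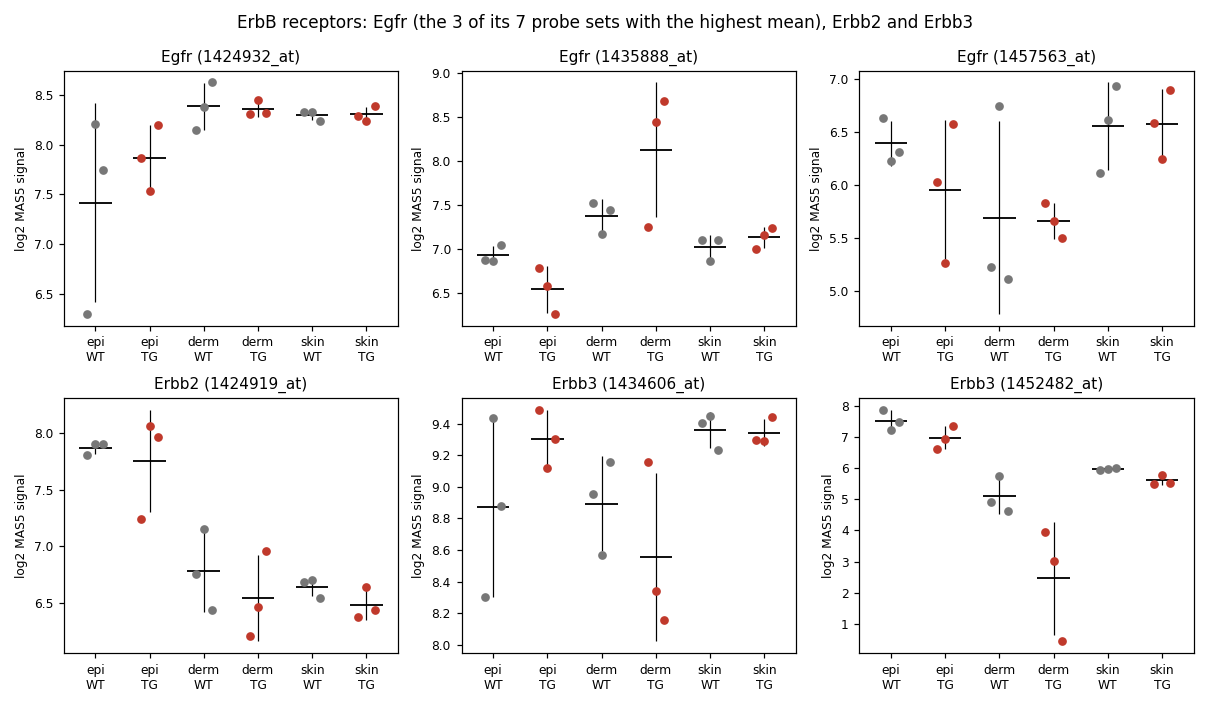
Log2 MAS5 signal (y axis) of receptor probe sets on every array, drawn as for the ligands: the 3 probe sets of Egfr with the highest mean, Erbb2 and both of Erbb3, with the mean (horizontal line) and 1 SD either side (vertical bar) of 3 arrays a group. Wild type and transgenic overlap in most panels, and Erbb3 1452482_at in dermis lies at 4.64 to 5.74 in wild type and 0.43 to 3.94 in transgenic mice, a difference that did not pass the test; y axes differ between panels.

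The genotype effects in the layers were set against each other. For dermis minus epidermis 0 of 19 member probe sets and 0% of all 31526 were called in limma. At an unadjusted p of 0.05 it was 3 of 19 members (Epgn, Egfr 1435888_at and Erbb3 1452482_at) against 7.4% of all probe sets, and 14 were called over all probe sets with 16 added on the linear scale, none of them a member. For whole skin minus epidermis 0 of 19 were called, against 0.0222% of all, and 1 of 19, Btc 1435541_at (0.71 ± 0.31, adjusted p = 0.432, limma), against 11.4% at an unadjusted p of 0.05. No member was thus shown to respond differently between these tissues.

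In wild-type mice most of the measured ligands gave a higher signal in epidermis than in dermis. Between wild-type dermis and wild-type epidermis 8 of 19 member probe sets were called, all lower in dermis, against 15.7% of all probe sets in either direction and 7.12% lower. By gene these were Epgn, Hbegf, Ereg, Tgfa and both probe sets of Btc among the ligands, and Erbb2 and Erbb3 1452482_at among the receptors. The median log2 difference of the members was -1.09, against -0.16 for all probe sets. In 10 of 19 every dermal array lay below every epidermal one, against 22.6% of all probe sets, and in 1 of 19, Egfr 1435888_at, above, against 17.2%. This comparison uses the same wild-type arrays as those with genotype. The spread behind its p-values came from all epidermis and dermis arrays, the transgenic ones included.

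Ereg gave 7.88, 8.35 and 8.74 in wild-type epidermis and 6.32, 4.65 and 6.01 in wild-type dermis, lower by 6.34-fold (-2.67 ± 0.41, adjusted p = 8.00e-04). Tgfa 1421943_at gave 8.49, 7.38 and 8.50 against 5.71, 5.59 and 5.33 (-2.58 ± 0.40, adjusted p = 8.56e-04). Hbegf 1418349_at gave 7.01, 5.86 and 7.07 against 3.79, 4.70 and 4.39 (-2.36 ± 0.41, adjusted p = 0.00187). The ranges of epidermis and dermis did not meet for any of these. The second Hbegf probe set did not pass (-0.87 ± 0.78, adjusted p = 0.458), nor did the other two of Tgfa (-1.55 ± 0.64 and -2.27 ± 0.78, adjusted p = 0.111 and 0.0614).

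Btc gave 6.92, 5.84 and 5.95 in wild-type dermis on 1421161_at, below all 3 epidermal arrays (-2.36 ± 0.54, adjusted p = 0.00945), and its other probe set was lower by a like amount (-2.56 ± 0.45, adjusted p = 0.00191). Epgn was lower by the least of the called ligands (-1.33 ± 0.41, adjusted p = 0.0419), and its call was lost in 12 of 23 alternatives, among them those without any 1 of the 6 wild-type arrays, with adjusted p up to 0.161. Erbb2 gave 6.76, 7.15 and 6.43 in wild-type dermis (-1.09 ± 0.31, adjusted p = 0.0278), and Erbb3 1452482_at 4.92, 5.74 and 4.64 against 7.89, 7.23 and 7.48 in epidermis (-2.44 ± 0.67, adjusted p = 0.0244). Both passed neither without wild-type dermal array 1 or 3 nor without wild-type epidermal array 1 or 3, with adjusted p between 0.0637 and 0.128. Erbb3 1434606_at was even (0.02 ± 0.33). Egfr 1424932_at differed the other way (0.97 ± 0.39, adjusted p = 0.105) without passing, and the other tested probe sets of Egfr differed by between -0.70 and 0.45.

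The layers themselves were set against marker genes. In wild-type dermis 10 of 12 fibroblast genes and 9 of 12 endothelial genes were higher and 8 of 12 genes of differentiated keratinocytes lower than in wild-type epidermis. Of the 10 basal keratinocyte genes 1 was lower. Of all 13739 genes, each read by its brightest probe set on average, 12.1% were higher and 5.66% lower. The summed linear signal of the 10 basal genes was 14170 to 16686 in wild-type dermis and 17763 to 23388 in wild-type epidermis, so the dermal samples held keratinocyte RNA too. Its part in the dermal values of the ligands was not tested. In these bulk samples fewer cells of a type and less RNA per cell cannot be told apart.

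Keratinocyte genes also moved with genotype. Of the same 13739 genes, 1.36% were higher and 0.728% lower in transgenic epidermis and 1.43% and 0.939% in whole skin. In dermis it was 0.0509% either way. In transgenic epidermis 8 of 9 alarm genes of stressed keratinocytes (such as Krt6a, Krt16 and S100a8) were higher, with a median difference of 4.57, and 8 of 9 were higher in whole skin, with a median of 3.62; in dermis 0 of 9 were called and the median was 2.36. Of the 10 basal keratinocyte genes 2 were lower in transgenic epidermis (Krt15 and Col17a1), and their summed signal was 12347 to 12750 against 17763 to 23388. In whole skin 1 of 10 was lower, and the sums of 12188 to 12806 overlapped the wild-type 12346 to 14737. In transgenic dermis the basal sum was 10945 to 12637, below the wild-type 14170 to 16686, with 0 of 10 called. Of 12 fibroblast genes 1, Pdgfrb, was higher in transgenic epidermis, where their sum was 9675 to 13919 against 4342 to 9636. In whole skin 1 of the 12 was lower. In transgenic dermis 4 of 11 genes of the hair shaft and inner root sheath were higher (Krt25, Krt27, Krt71 and Tchh), and the sum of 13 such genes was 2415 to 3987 against 278 to 387. Differentiated keratinocyte genes, with 0 of 12 called in dermis, summed there to 7436 to 13803 against 14148 to 24158, and in whole skin, with 3 of 12 higher, to 21306 to 26095 against 17973 to 21192. In epidermis 2 of 12 were higher, and the sums of 37946 to 45420 overlapped the wild-type 36278 to 52490. The T cell genes summed to 539 to 687 in transgenic against 748 to 932 in wild-type epidermis, with 1 of 8 higher, and to 579 to 724 against 465 to 513 in dermis. In whole skin 1 of 8 T cell genes was higher. The Langerhans and dendritic cell genes summed to 4376 to 5612 against 6428 to 8018 in dermis, with 0 of 8 called, while 2 of 8 were higher in whole skin. The Schwann cell genes summed to 359 to 486 against 529 to 615 in whole skin. The part of these shifts in the values of Btc and Epgn was not tested. Neutrophil markers were near the bottom of the scale, with sums of 7 genes between 26.1 and 236 in all groups.

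The wider pathway was read from lists of genes other than the members, each gene by its brightest probe set on average. Among such probe sets of 13739 genes, 1.36% were higher and 0.728% lower in transgenic epidermis, 1.43% and 0.939% in whole skin, and 0.0509% either way in dermis. Feedback and response genes, which MAP kinase signalling induces, held 2 higher and 0 lower of 17 in epidermis, 3 higher and 0 lower of 17 in whole skin, and 0 of 17 in dermis. Their median differences were 0.26, 0.27 and 0.42, against -0.10, -0.01 and -0.05 for all genes.

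Dusp6, a phosphatase that switches off ERK, gave 7.48, 7.51 and 7.93 in wild-type and 8.61, 9.34 and 9.18 in transgenic epidermis, and rose there by 1.40 ± 0.28 (adjusted p = 0.0317). In whole skin it gave 7.48, 7.62 and 7.47 in wild type and 8.60, 8.69 and 8.06 in transgenic mice, and rose by 0.93 ± 0.16 (adjusted p = 0.0270). It was the 1 gene of the list called in both tissues. In dermis the values of 8.28, 8.76 and 8.94 lay above the wild-type 7.90, 8.01 and 7.84, with a difference of 0.74 ± 0.28 that did not pass (adjusted p = 0.990). The epidermal call was lost without any 1 array but wild-type array 2 (adjusted p 0.0596 to 0.143), and that in whole skin without wild-type array 1 or 3 or transgenic array 1 or 2 (0.0752 to 0.122). A prior without trend ended both (0.154 and 0.139), quantile scaling the former (0.0599) and 1 spread for all 18 arrays the latter (0.289). In all, the epidermal call held in 9 of 17 alternatives and that in whole skin in 11 of 17.

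Phlda1, an early gene of growth factor signalling, gave 5.80, 5.75 and 6.19 in wild-type and 8.46, 8.18 and 7.32 in transgenic epidermis, and rose by 2.07 ± 0.34 (adjusted p = 0.0166). The call held in 12 of 17 alternatives. Among those that ended it were leaving out wild-type array 3 (0.0596) or transgenic array 1 (0.0924) or 2 (0.0813), and no trend (0.106). In whole skin its difference was 0.64 ± 0.23 (adjusted p = 0.210). Egr1, an immediate early transcription factor, gave 9.06, 9.04 and 8.62 in wild-type and 9.88, 9.96 and 9.83 in transgenic whole skin, and rose by 0.98 ± 0.12 (adjusted p = 0.00675), a call that no single array ended but that 1 spread for all 18 arrays (0.145) and a prior without trend (0.0890) did. Ier3, another immediate early gene, rose in whole skin by 0.91 ± 0.13 (adjusted p = 0.0113), but not without wild-type array 1 (0.0540) or transgenic array 1 (0.0581) or 2 (0.0585), with 1 spread for all 18 arrays (0.402) or without trend (0.0983). In epidermis Egr1 differed by 0.52 ± 0.27 and Ier3 by 1.3 ± 0.30 (adjusted p = 0.332 and 0.0609). The feedback inhibitors Spry1 and Spred2 had values below 0, with -1.18 ± 0.31 and -0.91 ± 0.39 in epidermis (adjusted p = 0.0945 and 0.263).

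**Figure D4:**
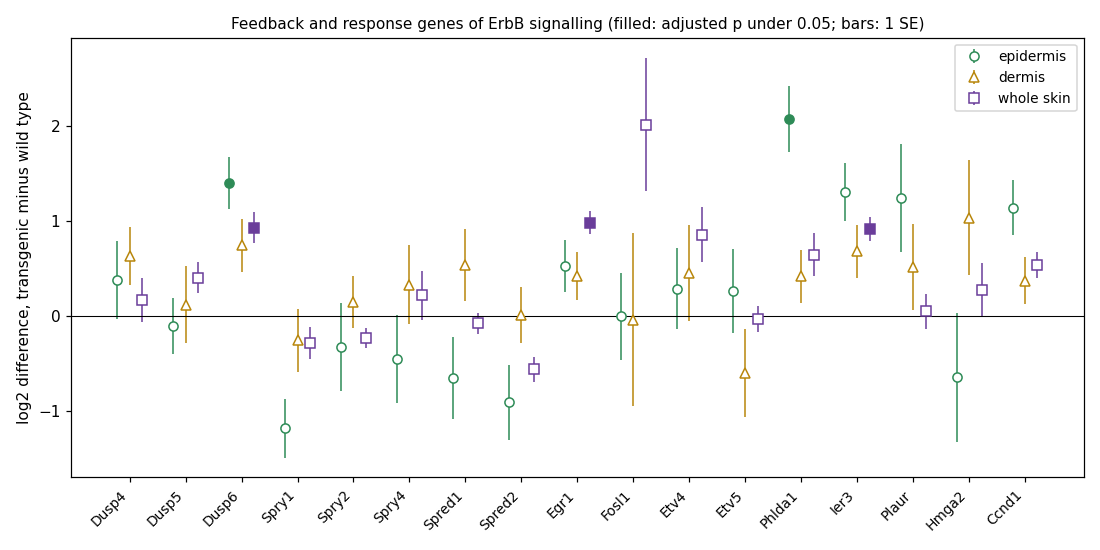
Log2 difference, transgenic minus wild type (y axis), of the 17 feedback and response genes (x axis) in epidermis, dermis and whole skin, with 1 standard error from limma; filled symbols passed the test at an adjusted p of 0.05. Filled are Dusp6 and Phlda1 in epidermis and Dusp6, Egr1 and Ier3 in whole skin, all above 0, and 0 of the dermal symbols.

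Of 8 genes of ligand shedding 1 was called with genotype. Adam12, a membrane protease that can release Hbegf and is a gene of fibroblasts and myoblasts too, gave 3.77, 3.89 and 3.92 in wild-type and 8.22, 6.38 and 6.09 in transgenic epidermis, and rose by 3.04 ± 0.53 (adjusted p = 0.0202). The call was lost without wild-type array 3 (0.0926) or transgenic array 1 (0.0924) or 2 (0.0629), or without trend (0.109). In wild-type dermis Adam12 was higher than in wild-type epidermis by 3.76 ± 0.50 (adjusted p = 3.38e-04), and the fibroblast sums given above were higher in transgenic epidermis too, with a part in this result that was not tested. Adam17, the main protease for several of the ligands, differed by -0.12 ± 0.24, -0.08 ± 0.30 and -0.01 ± 0.11 in epidermis, dermis and whole skin. The 8 genes had 0 calls in dermis and in whole skin.

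Of 15 receptor inhibitors and turnover genes 1 was called, Socs5, which promotes degradation of the EGF receptor. It gave 7.52, 7.35 and 7.75 in wild-type and 8.61, 8.61 and 8.70 in transgenic epidermis, and rose by 1.10 ± 0.24 (adjusted p = 0.0499), a call that ended without any 1 array but wild-type array 2 (0.0943 to 0.186), and that held in 8 of 17 alternatives. Errfi1, an inhibitor of the receptor kinase, differed by 1.06 ± 0.41, 0.95 ± 0.40 and 0.66 ± 0.19 in epidermis, dermis and whole skin (adjusted p = 0.217, 0.990 and 0.135). Of 17 adaptors and kinases of the cascade 0 were called with genotype in any of the 3 tissues, at 1, 0 and 3 of 17 with an unadjusted p under 0.05, against 18.1%, 4.38% and 18.3% of all genes in epidermis, dermis and whole skin. Of the other ligands and the fourth receptor, Nrg2 and Nrg4 passed the filter and neither was called, with 0 of 2 at an unadjusted p under 0.05, while Erbb4, Nrg1 and Nrg3 were too dim to be tested. Of the 17 feedback genes 7, 2 and 9 had an unadjusted p under 0.05 in epidermis, dermis and whole skin, against the same 18.1%, 4.38% and 18.3% of all genes.

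Between the wild-type layers 12.1% of these genes were higher and 5.66% lower in dermis. Of the shedding genes 4 of 8 were higher (Adam9, which did not pass without wild-type dermal array 3, with 0.0669, and Adam12, Adam19 and Timp3, an inhibitor of ADAM proteases) and 1 lower (Rhbdf2, a partner that carries Adam17 to the cell surface, -2.23 ± 0.36, adjusted p = 0.00124). Of the feedback genes 2 of 17 were higher (Dusp4 and Phlda1) and 3 lower (Dusp5, Fosl1 and Etv4). Dusp5 passed in all 23 alternatives and Dusp4 in 20, but Phlda1 in 14 of 23, Fosl1 in 15 of 21 and Etv4 in 8 of 23 (adjusted p up to 0.0983, 0.148 and 0.589). Phlda1 was lost without any 1 of the 6 wild-type arrays, Fosl1 without dermal array 2 or 3 or epidermal array 1 or 3, Etv4 without any of these arrays but epidermal array 2, and Dusp4 without dermal array 2 or 3 or epidermal array 1. Lrig2 and Socs5 were the 2 of 15 inhibitors and turnover genes that were higher. Lrig2 passed in 19 of 23 alternatives, not without wild-type dermal or epidermal array 1 or 3, and Socs5 in 10 of 23, not without any wild-type array but dermal array 2 (adjusted p up to 0.0953 and 0.408). Pik3r1, the regulatory subunit of phosphoinositide 3-kinase, was higher and Akt1, a kinase downstream of it, lower among 17 cascade genes. They passed in 18 and 19 of 23 alternatives, not without wild-type dermal array 1 or 3 or epidermal array 1, nor Pik3r1 without dermal array 2.

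The Notch target list gave 0 higher and 2 lower of 10 in epidermis (Gata3, -1.49 ± 0.27, adjusted p = 0.0223, and Lfng, -1.79 ± 0.37, adjusted p = 0.0383), 0 in dermis, and 1 higher in whole skin, Heyl. Gata3 passed in 11 of 17 alternatives and Lfng in 8 of 17, with adjusted p up to 0.141 and 0.170. Gata3 did not pass without wild-type array 1 or 3 or transgenic array 1 or 2, nor Lfng without any 1 array but wild-type array 2. Genes whose pattern lay closest to those of Epgn and Btc were sought among 13730 genes, by the root mean square of the difference in log2 value over the 18 arrays after each gene was centred on its mean. For Epgn, whose own root mean square was 1.3, they were 9530059O14Rik (0.540), Slc5a1, a sodium-glucose transporter (0.579), and Slurp1, a secreted protein of epidermis (0.593). For Btc, with 1.45, they were Skint10 (0.455), Tesc (0.496) and Ccr4, a chemokine receptor (0.617). All these values share the 18 arrays and describe only likeness over them.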

How the data were processed

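The authors deposited 1 table of 45037 probe sets for 18 arrays. MAS5 is named in the submitters' processing notes, without version or settings. The deposited values were taken as log2 signals: turned back with base 2, each array's mean without its highest and lowest values lay between 98.9 and 99.5. They were used without further normalization, so arrays differ in their medians (4.36 to 5.18). The number of arrays limits the precision. The platform annotation gave the gene names: 34945 probe sets had 1 symbol, 932 several and 9160 none. All 20 member identifiers were found in the RefSeq table.

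Probe sets above the 30th percentile of the means were fitted with limma 3.58.1 under R 4.3.3 (group means, trended prior) on the arrays of the compared tissues only, since tissues differ in spread. The other settings were all 18 arrays, a weight for each tissue, 16 added on the linear scale, quantile or 75th percentile scaling, other filters and summaries of probe sets, no trend, a replicate block and leaving out each array.

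All probe sets of the members were named whatever their result, with up to 4 called genes per pathway list and tissue, Heyl, Adam17, Errfi1, Spry1, Spred2 and the fifth shedding and feedback genes called between the wild-type layers being named also after their values were seen, and 3 genes nearest to each of Epgn and Btc, the members whose representative was called with genotype in at least 1 tissue. A gene's representative is its probe set with the highest mean. The members and lists were chosen with earlier results of these data known. The TATA box was searched for after the other motifs. A planned search of the proteins was not run.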

Additional observations from a re-analysis of the deposited data

How the results depend on the processing

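All 40 called differences of members and pathway genes kept their direction under all 820 alternatives, and the 45 differences of the members' representative probe sets that were not called kept it in 806 of 885; other uncalled probe sets and pathway genes were not refitted. Called member probe sets in epidermis, 2, became 1 with 1 probe set or the mean of all probe sets per gene, which tests fewer. They became 0 without trend or with the replicate block, and 3 with all 18 arrays and 1 spread or with 16 added. Without 1 array they were 0 to 3 (0 without wild-type array 3 or transgenic array 2, 1 without transgenic array 3). Whole skin, 3, became 1 with all 18 arrays and 1 spread, 1 without trend, and 4 with the block or a weight for each tissue. It became 2 with 1 probe set or the mean of all probe sets per gene, and 3 to 5 without 1 array (5 without transgenic array 3). Wild-type dermis against epidermis, 8, gave 5 to 9 without 1 array (5 without dermal array 1 or 3 or epidermal array 1). It gave 10 with all 18 arrays and 1 spread, and 7 with the block, a weight for each tissue or 75th percentile scaling. With 1 probe set or the mean of all probe sets per gene it gave 6. Dermis and both differences between tissues gave 0 throughout. The labels do not pair the samples by number and same-numbered samples of 1 tissue did not deviate together (correlations -0.33 to 0.07). Across tissues the correlations were 0.17 to 0.22 for transgenic and 0.068 to 0.093 for wild-type epidermis with whole skin, and 0.0027 to 0.40 and -0.042 to 0.049 for epidermis with dermis. The comparisons between tissues were fitted as if these samples were independent, and with the block both differences in genotype effect still had 0 members called. Calls over all probe sets moved more: in epidermis from 470 to 51 (no trend), 192 (block), 852 (weights), 1811 (all 18 arrays) and 88 to 2396 without 1 array; in whole skin from 493 to 34 (all 18 arrays), 58 (no trend), 240 (mean of probe sets), 790 (weights) and 138 to 509; in dermis from 7 to 2 (no trend), 56 (all 18 arrays) and 1 to 36; for dermis against epidermis in genotype effect from 0 to 45 (all 18 arrays); for whole skin against epidermis from 7 to 43 (weights) and 0 to 1588; and between wild-type layers from 4947 to 8488 (all 18 arrays) and 2303 to 6344. Quantile scaling moved the median of all probe sets in epidermis from -0.20 to 0.00.

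The differences that changed sign were not called, and not all of them were near 0. The largest were Egfr between the wild-type layers (0.97), Egf in dermis (-0.91) and Hbegf between whole skin and epidermis (0.57). Egfr (0.45) and Erbb3 (0.43) in epidermis and Egf in whole skin (-0.46) were smaller. So were Epgn (0.43) and Egfr (-0.44) between whole skin and epidermis, and Egfr between dermis and epidermis (-0.47). The 75th percentile gave 0.11 for Tgfa in epidermis, 0.046 for Epgn and 0.037 for Egfr in dermis, 0.028 for Erbb3 in whole skin, -0.017 for Ereg between dermis and epidermis and -0.033 for Btc between whole skin and epidermis. Quantile scaling gave 0.086 for Epgn in dermis, -0.26 for Egf and 0.050 for Erbb2 between whole skin and epidermis, and 0.21 for Egf and -0.069 for Erbb3 between the wild-type layers. The mean of all probe sets gave -0.25 for Egfr and -0.060 for Erbb3 in epidermis, -0.085 for Egfr in whole skin, 0.037 for Btc and 0.15 for Egfr between dermis and epidermis, -0.10 for Hbegf and 0.17 for Egfr between whole skin and epidermis, and -1.21 for Erbb3 and -0.18 for Egfr between the wild-type layers. Adding 16 gave -0.020 for Ereg, 0.45 for Btc and 0.031 for Egf between dermis and epidermis. The cause was not tested. Without 1 array the lowest and highest were, in epidermis, -0.12 and 0.31 for Ereg, -0.38 and 0.18 for Tgfa, -0.12 and 0.84 for Egfr and -0.27 and 0.14 for Erbb2. In dermis they were -0.22 and 0.14 for Epgn, -0.37 and 0.46 for Ereg, -0.14 and 0.096 for Egfr and -1.73 and 0.11 for Egf. In whole skin they were -0.082 and 0.027 for Erbb3, -1.06 and 0.0086 for Egf and -0.037 and 0.039 for Egfr. Between dermis and epidermis they were -0.57 and 0.70 for Btc, -1.10 and 0.73 for Egf, -0.47 and 0.36 for Ereg, -0.38 and 0.062 for Erbb2 and -0.87 and 0.090 for Egfr. Between whole skin and epidermis they were -0.43 and 0.64 for Egf, -0.84 and 0.12 for Egfr, -0.23 and 0.32 for Btc, -0.10 and 0.89 for Epgn and -0.30 and 0.11 for Erbb2, and between the wild-type layers -0.26 and 0.30 for Erbb3 and -0.62 and 0.35 for Egf. Dim probe sets, such as that of Egf, limit what these arrays can show.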
